A study of Mus musculus with 60 samples.

Results

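The genes described here encode the neuropeptides of mouse primary sensory neurons, and they were taken by name from a list of 10 among 21887 protein-coding genes. Gal (galanin), Npy (neuropeptide Y), Vip (vasoactive intestinal peptide), Nts (neurotensin) and Adcyap1 (the precursor of PACAP) form the injury-induced group. Calca and Calcb, which encode the alpha and beta forms of calcitonin gene-related peptide, and Tac1, the precursor of substance P, form the constitutive group. Sst (somatostatin) and Cck (cholecystokinin) belong to neither group. Peaks were counted in each gene body and 50 kb on either side, called the window of the gene below.

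The study took L4-L6 dorsal root ganglia, which hold the cell bodies of the sensory neurons of the sciatic nerve, from C57BL/6 mice aged 6 to 8 weeks, 24 h after surgery. The surgeries were axotomy of the sciatic nerve (SNA), its sham operation (Sham), axotomy of the dorsal columns in the spinal cord (DCA) and laminectomy (Lam), the bone removal that gives access to the cord. Acetylation of histone H3 at lysine 9 (H3K9ac) or lysine 27 (H3K27ac), both found at active promoters and enhancers, and trimethylation at lysine 27 (H3K27me3), found in Polycomb-repressed chromatin, were mapped by ChIP-seq in 2 samples per mark and surgery, each a pool of ganglia from 10 mice, with matching inputs. Open chromatin was mapped by ATAC-seq, in which a transposase cuts accessible DNA, in 3 samples per surgery of 1 mouse each. The mice carried no genetic change named in the labels, and their sex is not given in the sources used here.

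Neuropeptides are cut from larger precursors in the dense core vesicles of neurons and released to act on G protein-coupled receptors of other cells. Calcitonin gene-related peptide and substance P are made by many uninjured nociceptors and act in pain and in vasodilation. Galanin, neuropeptide Y, vasoactive intestinal peptide and PACAP are known for transcripts that accumulate in sensory neurons after the peripheral axon is cut. The surgeries set a cut of that peripheral branch (SNA) beside a cut of the central branch of the same neurons (DCA), each with its own control. The transcripts themselves were not measured in this series.

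Each assay and surgery was deposited as 1 peak list, 16 in all, with the replicates pooled, so no difference below carries a replicate error or a p-value. Lists held 43803 to 89647 peaks for H3K9ac and H3K27ac, 90011 to 154055 for H3K27me3 and 153556 to 174605 for ATAC, and the read depth behind them is unknown. Intervals given below are 95% intervals that cover counting error only. The tissue was checked by markers: of 9 sensory neuron markers, 7, 8, 8 and 8 had an ATAC peak within 1 kb of their start in the Sham, SNA, Lam and DCA lists, and 1, 1, 2 and 2 had an H3K9ac peak there. Of 8 satellite glia and Schwann cell markers, 6, 6, 6 and 7 had an ATAC peak and 7 in each list had an H3K9ac peak. Over all genes, 68.8% to 70.7% had an ATAC peak at the start and 50.1% to 59.9% an H3K9ac peak. Neuronal start sites were therefore open in most cases, as were those of most genes, but rarely in the H3K9ac lists. Glial ones were mostly in both. For the 6 macrophage markers, ATAC start-site peaks numbered 3, 2, 2 and 2, and for the 4 endothelial markers 3, 4, 3 and 2. Of 5 markers of tissues that should be absent, 2, 2, 3 and 3 had such an ATAC peak and 0, 1, 0 and 1 an H3K9ac peak. Open starts of markers therefore do not identify the cell types by themselves. In whole ganglia, fewer cells with a peak and less signal in each cell cannot be told apart, and peaks of different assays at one place need not come from the same cells.

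The promoters of 9 of the 10 genes matched the RefSeq table (GRCm38.p6, 250 bases before to 50 after the start); Calcb did not. Shown are 7 of them, those with an ATAC, H3K9ac or H3K27ac peak at the start in some lists of that assay and not in others, with matches to the core of the cyclic AMP response element (TGACG, read on both strands, so CGTCA on the other), its full form (TGACGTCA, which holds the core), the AP-1 form TGANTCA and the TATA form TATAAA in capitals. They lie at chr19:3414495-3414794 (minus strand), chr6:49822460-49822759 (plus), chr10:5638968-5639267 (plus), chr10:102490369-102490668 (minus), chr17:93198918-93199217 (plus, for the second of the 2 annotated starts of Adcyap1), chr7:114636308-114636607 (minus) and chr16:23890795-23891094 (minus).
Gal: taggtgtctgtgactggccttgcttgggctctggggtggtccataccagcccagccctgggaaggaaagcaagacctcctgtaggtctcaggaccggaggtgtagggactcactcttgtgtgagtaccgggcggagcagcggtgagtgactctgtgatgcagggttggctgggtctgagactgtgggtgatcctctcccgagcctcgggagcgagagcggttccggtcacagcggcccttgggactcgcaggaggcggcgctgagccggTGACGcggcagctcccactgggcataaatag
Npy: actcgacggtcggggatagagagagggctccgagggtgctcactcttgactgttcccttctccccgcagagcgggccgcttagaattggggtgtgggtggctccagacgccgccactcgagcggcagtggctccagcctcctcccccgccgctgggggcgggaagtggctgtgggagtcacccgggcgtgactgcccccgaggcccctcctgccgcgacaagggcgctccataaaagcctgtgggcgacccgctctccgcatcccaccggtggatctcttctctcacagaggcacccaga
Vip: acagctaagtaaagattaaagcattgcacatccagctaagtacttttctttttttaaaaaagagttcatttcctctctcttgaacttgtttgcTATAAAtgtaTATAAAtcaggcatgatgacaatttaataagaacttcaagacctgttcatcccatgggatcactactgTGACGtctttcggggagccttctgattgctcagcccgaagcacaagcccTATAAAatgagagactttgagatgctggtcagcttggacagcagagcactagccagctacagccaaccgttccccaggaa
Nts: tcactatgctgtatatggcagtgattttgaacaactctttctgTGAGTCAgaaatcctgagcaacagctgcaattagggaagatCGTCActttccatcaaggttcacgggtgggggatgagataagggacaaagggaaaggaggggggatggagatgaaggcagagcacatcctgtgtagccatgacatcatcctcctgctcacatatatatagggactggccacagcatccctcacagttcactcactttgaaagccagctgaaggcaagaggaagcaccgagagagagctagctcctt
Adcyap1: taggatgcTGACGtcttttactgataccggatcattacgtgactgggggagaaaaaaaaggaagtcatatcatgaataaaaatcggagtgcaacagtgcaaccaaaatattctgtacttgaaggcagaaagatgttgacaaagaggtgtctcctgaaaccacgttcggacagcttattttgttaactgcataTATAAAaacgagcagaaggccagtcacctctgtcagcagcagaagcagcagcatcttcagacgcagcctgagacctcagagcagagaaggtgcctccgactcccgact
Calca: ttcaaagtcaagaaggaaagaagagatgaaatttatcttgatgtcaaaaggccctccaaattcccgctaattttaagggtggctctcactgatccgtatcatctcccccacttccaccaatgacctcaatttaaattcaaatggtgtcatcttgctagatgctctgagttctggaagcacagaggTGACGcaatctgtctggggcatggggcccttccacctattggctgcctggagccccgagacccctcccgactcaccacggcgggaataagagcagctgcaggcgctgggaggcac
Sst: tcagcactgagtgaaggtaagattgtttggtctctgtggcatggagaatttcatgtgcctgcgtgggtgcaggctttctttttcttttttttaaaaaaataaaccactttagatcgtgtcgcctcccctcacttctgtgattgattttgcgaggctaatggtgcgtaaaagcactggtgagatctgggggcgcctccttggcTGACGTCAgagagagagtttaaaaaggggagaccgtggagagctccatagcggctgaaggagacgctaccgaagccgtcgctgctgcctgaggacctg
The core TGACG stood in the promoters of 8 of the 9 genes, Npy being the exception, against 20.8% of the 32851 promoters in the table. Counted with the start as position 0, it lay in the printed sense strand at 19 to 23 in Gal, -79 to -75 in Vip and -65 to -61 in Calca, and on the opposite strand at -47 to -43 in Cck and -166 to -162 in Nts. Tac1 held 2 matches and Adcyap1 1 before each of its 2 annotated starts. The full element occurred only in Sst, at -48 to -41, and in 1.79% of all promoters. An AP-1 match occurred only in Nts, TGAGTCA at -207 to -201, and in 7.81% of all promoters. The STAT palindrome TTCNNNGAA, present in 8.30% of all promoters, had no match in the promoters of the 9 genes. TATAAA was found in Vip, 3 times, the nearest at -30 to -25, and before the second start of Adcyap1, against 13.6% of all promoters. CpG content differed widely, from 3 CpG in Nts and 4 in Vip to 22 in Tac1 and 24 in Npy, around a median of 7 over all promoters. A match is a string of letters and not evidence of binding.

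Open chromatin at the start sites divided these genes into those open after every surgery and those open after some. An ATAC peak within 1 kb of the start was present in 6, 7, 7 and 7 of the 10 genes in the Sham, SNA, Lam and DCA lists, against 68.8%, 70.7%, 69% and 70.1% of all genes. Gal, Npy, Calca, Tac1 and Cck had one in all 4 lists, as did 62.1% of all genes. None of the 10 was without one in every list, where 22.9% of all genes were. Nts and Sst had one in the SNA list only, a pattern shared by 1.43% of all genes. Vip had one in the Lam list only, and Adcyap1 in the Sham, Lam and DCA lists but not the SNA list. The Adcyap1 peaks lay inside the gene and covered neither annotated start. The Tac1 peak of the DCA list also lay inside its gene and did not cover the start. Calcb had one in the DCA list only, at the lower-coordinate end of the gene, since its strand was not taken from the table. That peak belongs to a site inside Calcb, chr7:114717376-114719169, that was also open in the SNA and Lam lists. Their peaks at the site began just beyond the 1 kb limit in Lam and further in for SNA. Between SNA and Sham, 2 genes gained a start-site peak (Nts and Sst, background 5.17%) and 1 lost one (Adcyap1, 3.23%). Between DCA and Lam, Calcb gained one (4.6%), at its site shared with the Lam list, and Vip lost one (3.5%). Between Lam and Sham, Vip gained one (4.38%) and none lost one (4.17%).

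**Figure D1:**
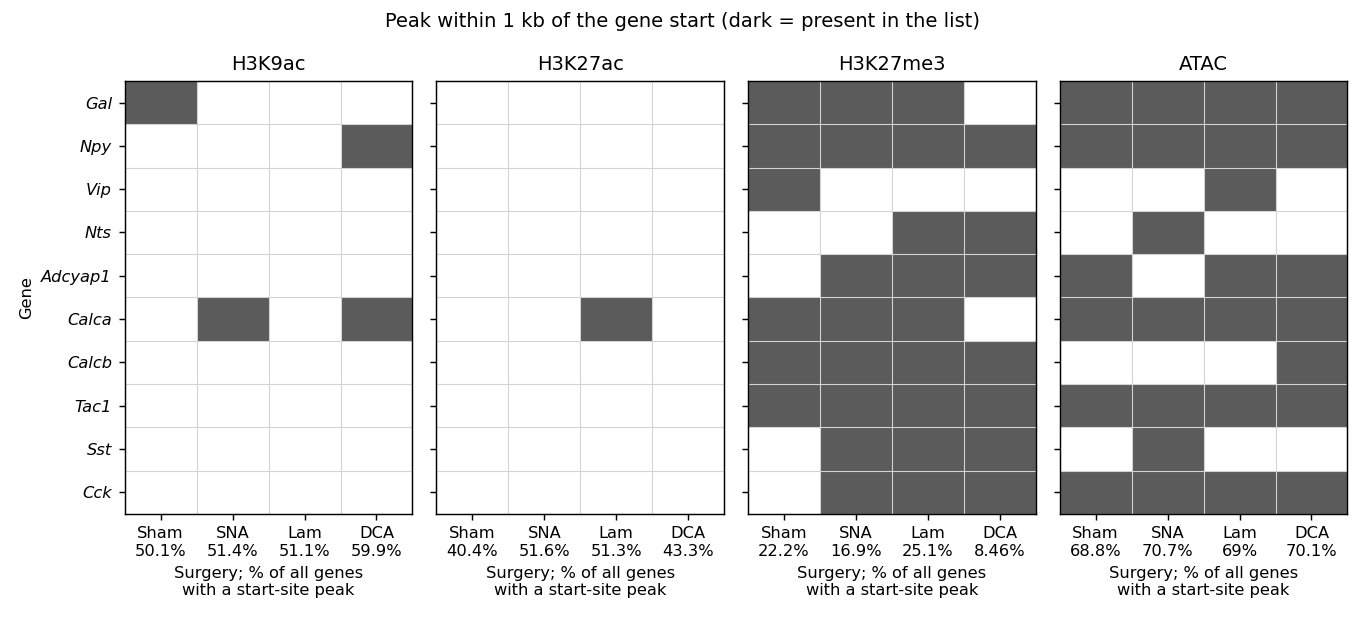
Start-site peaks of the 10 neuropeptide genes. Columns are the 4 surgeries of each assay with the percent of all protein-coding genes that had such a peak, rows are genes, and dark cells mark a peak within 1 kb of the start. The acetylation panels hold 4 and 1 dark cells of 40, the H3K27me3 panel 30 and the ATAC panel 27.

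Acetylated start sites were few. An H3K9ac peak stood within 1 kb of the start of 1, 1, 0 and 2 of the 10 genes in the Sham, SNA, Lam and DCA lists, against 50.1%, 51.4%, 51.1% and 59.9% of all genes. For H3K27ac the numbers were 0, 0, 1 and 0, against 40.4%, 51.6%, 51.3% and 43.3%. Among the 9855 genes whose promoter had 3 to 24 CpG, the range of these promoters, 54.6%, 56.8%, 54.3% and 63.6% had an H3K9ac start-site peak. Among the 2334 genes with a TATAAA match in their first listed promoter, as in Vip, 23.8%, 25.4%, 23.6% and 29.2% had one. Adcyap1 was not among them, since its match lies before its second start. Vip, Nts, Adcyap1, Calcb, Tac1, Sst and Cck had neither acetyl mark at the start in any of the 8 lists, as did 36.9% of all genes. Vip, Nts and Adcyap1 had no acetyl peak anywhere in their windows in any of these lists, as did 19% of all genes. Sensory neuron markers were also sparse in acetylation (1 to 2 of 9 with H3K9ac, 2 to 3 of 9 with H3K27ac) while glial markers were not (7 of 8 and 5 to 8 of 8). The part of the ganglion's mix of cell types in this pattern was not tested. None of the 10 genes had a start-site peak in all 4 lists of H3K9ac (43.2% of all genes) or of H3K27ac (32.7%), and 7 and 9 of them had none in any list of the mark (38.1% and 42.9%).

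Gains and losses of acetylated starts involved Gal, Npy and Calca alone among the 10. For H3K9ac, Calca gained a start-site peak between SNA and Sham (5.19% of all genes) and Gal lost one (3.84%). Between DCA and Lam, Npy and Calca gained one (9.43%) and none lost one (0.571%). Between the controls Lam and Sham, none gained one (5.32%) and Gal lost one (4.36%), so the Gal peak set Sham apart from the laminectomy control as well as from SNA. For H3K27ac, SNA against Sham gave no gain (13.6%) and no loss (2.39%), DCA against Lam gave no gain (2.4%) and the loss of Calca (10.4%), and Lam against Sham gave the gain of Calca (13%) and no loss (2.13%).

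Calca was the gene of the 10 with H3K9ac at its start after both axotomies and neither control. Its H3K9ac peak spanned chr7:114635781-114636440 in the SNA list (fold enrichment 4.48, −log10 p 6.50) and chr7:114635666-114636277 in the DCA list (fold 3.72, −log10 p 8.10), with summits 58 and 210 bases after the start of the promoter shown above. No H3K9ac peak of the Sham or Lam list lay in its whole window. This pattern, H3K9ac at the start in the SNA and DCA lists only, was found in 1.4% of all genes. The SNA and DCA H3K9ac lists are also the longest, 74652 and 89647 peaks against 50332 and 50667. With each list cut to the size of the shortest by −log10 p, both Calca peaks were retained and 0.726% of all genes had the pattern. H3K27ac at Calca ran otherwise, with a start-site peak in the Lam list alone (fold 3.68, −log10 p 6.04), which was not retained at equal list sizes, and a peak 16.3 kb upstream in the Sham and Lam lists, chr7:114652438-114652836 and chr7:114652464-114652760. The SNA list had 1 H3K27ac peak in the window, 59.3 kb downstream, and the DCA list had none. Its ATAC counts were 5, 5, 6 and 9 in the Sham, SNA, Lam and DCA lists, with the start and a site 1.3 kb upstream (chr7:114637043-114638289) open in all 4. Calca thus kept its 2 proximal open sites after every surgery and differed between surgeries in acetylation.

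Calcb, on the same chromosome as Calca, had the most acetyl peaks of the 10 genes, 3, 10, 4 and 11 for H3K9ac and 7, 12, 12 and 10 for H3K27ac. Most of them were not at Calcb: 3, 8, 4 and 9 of the H3K9ac peaks lay within 1 kb of Insc, a gene for a spindle orientation protein that lies 20.3 kb away. Inside Calcb there was 1 H3K9ac peak in the SNA list (chr7:114719934-114720139, fold 3.18, −log10 p 3.50) and 1 in the DCA list (chr7:114719629-114720246, fold 2.88, −log10 p 5.87), and none in the Sham or Lam list. Both overlapped a site open in all 4 ATAC lists, chr7:114719649-114721136. They were stronger than 14.3% and 31.2% of the peaks of their lists, and neither was retained at equal list sizes. ATAC counts in the Calcb window were 9, 9, 12 and 10. The Calcb and Calca windows share 20.4 kb, and shared peaks count once in the group totals below.

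Tac1 had no H3K9ac peak in its window in any list and a single H3K27ac peak, in the DCA list, inside the gene 2.37 kb from the start (chr6:7557277-7557567, fold 6.11, −log10 p 11.8). Its ATAC counts were 9, 7, 8 and 6. A peak lay within 1 kb of the start in all 4 lists. In the Sham, SNA and Lam lists a peak covered the start, with summits 61, 88 and 62 bases after it. The DCA peak, chr6:7555583-7556757, did not cover the start and had its summit 1203 bases into the gene. A second site, 50.3 kb downstream of the start (chr6:7604690-7606050), was open in all 4 lists and held the strongest ATAC peak of the window in the SNA, Lam and DCA lists. The promoter of Tac1 is rich in CpG, and its open start without acetyl peaks is shared with Cck.

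Gal, the best known injury-induced peptide gene of these neurons, had an open start in all 4 lists, within chr19:3414076-3415144. Its H3K9ac start-site peak was in the Sham list only (chr19:3414132-3414848, fold 3.67, −log10 p 4.19), stronger than 48.5% of the peaks of that list, and it was retained at equal list sizes. The ATAC counts of its window were 11, 17, 20 and 14, higher in the other 3 lists than in Sham, the laminectomy control included. The strongest ATAC peak of the window was the same site in each list, 25.2 to 25.8 kb downstream at Tesmin, a testis-expressed gene, and not at Gal. Its H3K27ac counts of 1, 0, 1 and 1 came from a single place 45.5 kb downstream in Cpt1a, the carnitine palmitoyltransferase of the mitochondrial outer membrane. The other H3K9ac peaks were 35.1 kb upstream in Lam and at Tesmin in DCA. No acetyl peak of the SNA list lay in the Gal window.

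Npy had its start open in all 4 ATAC lists, with summits at positions -145 to -14 from the start, and this was the strongest ATAC peak of its window in the Sham, SNA and DCA lists (fold 3.20, 3.34 and 2.79, each in its own list). ATAC counts were 10, 7, 6 and 6, highest in Sham. The H3K9ac start-site peak appeared in the DCA list only (chr6:49822267-49822583, fold 2.25, −log10 p 3.60), where it stood above 3.75% of the peaks of that list, and it was not retained at equal list sizes. A lone H3K27ac peak lay 42.6 kb downstream, also in the DCA list.

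Nts had 1, 3, 1 and 2 ATAC peaks, the fewest of the 10 genes in every list but SNA, where Vip had fewer. Its start was open in the SNA list alone, at chr10:102490246-102490564, with the summit 27 bases before the start (fold 2.13, −log10 p 5.31), stronger than 53.7% of the peaks of the SNA list. The AP-1 and TGACG matches printed above lie outside that interval, on its upstream side. Other SNA peaks of the window were 21.4 kb upstream at Rassf9 and 55.2 kb downstream, and sites at both places were also in the DCA list. The site at Rassf9 also held the only ATAC peak of the window in the Sham list. The Nts start peak was retained at equal list sizes, where 1.31% of all genes were open at the start in the SNA list only.

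Vip, encoding a peptide that relaxes smooth muscle, had 3, 1, 4 and 4 ATAC peaks. Its start was open in the Lam list only (chr10:5639138-5639370, fold 2.52, −log10 p 8.16), and not in the Sham list or either axotomy list. The single SNA peak lay in the gene 5.87 kb from the start, at the site of a Sham peak. No acetyl peak accompanied these sites in any list.

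Adcyap1, whose product PACAP acts through the same receptor family as Vip, had 8, 6, 5 and 5 ATAC peaks. A site inside the gene, chr17:93200745-93203166, was open in all 4 lists, and in the Sham, SNA and Lam lists it held the strongest peak of the window. The peak nearer the start, chr17:93199251-93200394, was in the Sham, Lam and DCA lists and not in the SNA list. It covered neither annotated start, with summits 1112, 894 and 1123 bases after the second start in those lists. Adcyap1 thus lacked this peak in the SNA list, where Nts and Sst had their start-site peaks. The places differ, since the Nts peak and the nearer Sst peak covered the start, with summits at -27 and 106. The intragenic site of Adcyap1 at chr17:93200745-93203166 stayed open in all lists. A further intragenic site, chr17:93203742-93204005, was open in the SNA list only (fold 2.34, −log10 p 8.39). That peak was retained at equal list sizes.

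**Figure D2:**
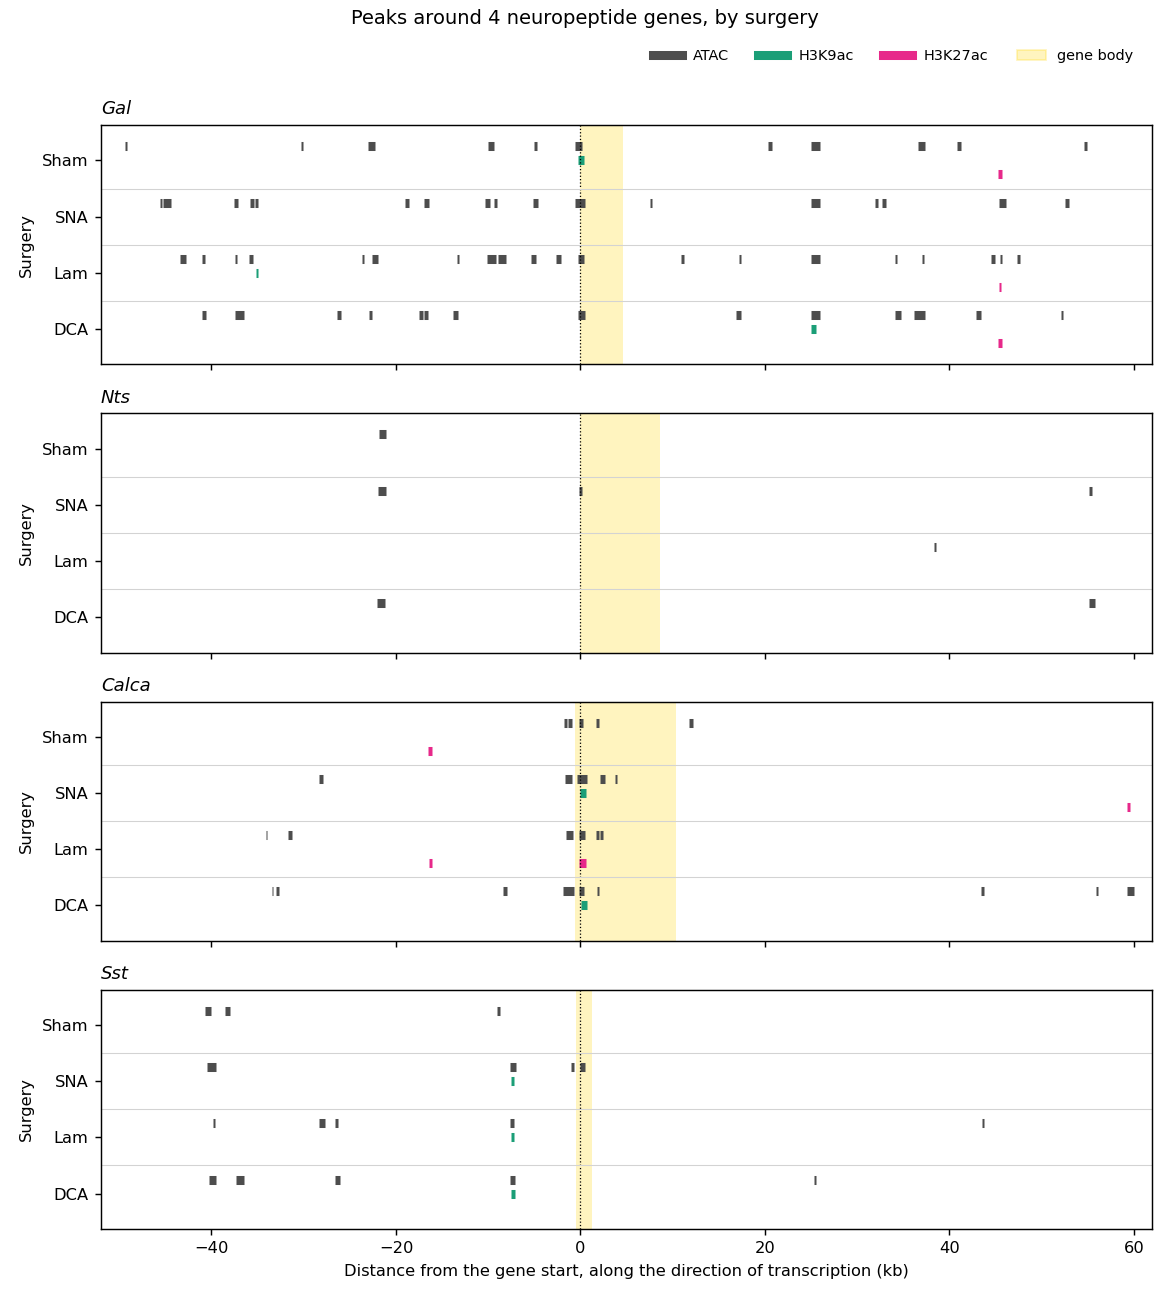
Peaks in the windows of Gal, Nts, Calca and Sst by distance from the start in kb along the direction of transcription. Rows within a panel are the 4 surgeries, bars are single peaks of ATAC (dark grey), H3K9ac (green) and H3K27ac (pink), and the shaded band is the gene. The Nts start is open in SNA only, H3K9ac stands at the Calca start in SNA and DCA, and the Sst site 7.3 kb upstream is absent from Sham.

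Sst, a peptide of a subset of itch neurons that inhibits secretion, had 3, 4, 5 and 5 ATAC peaks. Its start, where the full cyclic AMP response element lies, was open in the SNA list only, by peaks with summits at positions 106 and -923 (chr16:23890315-23890900, fold 2.02, −log10 p 4.60, and chr16:23891547-23891922, fold 2.08, −log10 p 4.95). The first of these covers the element. A second site 7.3 kb upstream, chr16:23897828-23898491, was open in the SNA, Lam and DCA lists. At the same place stood an H3K9ac peak in those same 3 lists, with folds of 3.44, 2.84 and 3.07 in the SNA, Lam and DCA lists. The Sham lists held neither. Since the laminectomy control has both peaks, the site does not separate axotomy from control. All 3 H3K9ac peaks were retained at equal list sizes.

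Cck, a peptide of brain and gut as well as of sensory neurons, had 12, 21, 20 and 14 ATAC peaks, the most of the 10 genes in each list except that Gal tied in Lam and in DCA. Many were at Trak1, a neighbouring gene for a kinesin adaptor, and a site 25.2 kb upstream of Cck (chr9:121520181-121521568) was open in all 4 lists. H3K27ac peaks lay upstream of the gene, 9.7 kb away in the Lam and DCA lists and 23.0 kb away in the Sham and DCA lists. The SNA list had no acetyl peak in the Cck window. The 3 H3K9ac peaks of Cck were all in the DCA list, 2 of them at Trak1.

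**Figure D3:**
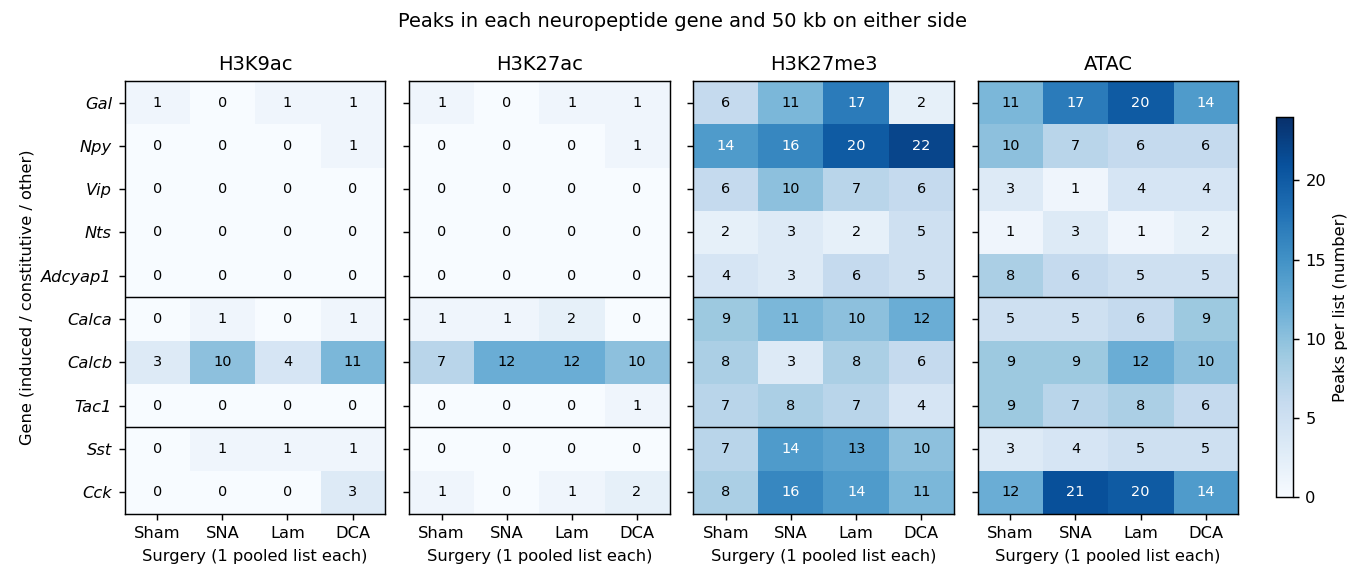
Number of peaks in each gene and 50 kb on either side, per list. Panels are assays, columns surgeries and rows genes, with lines between the injury-induced, constitutive and remaining genes, and colour follows the printed number. Acetyl peaks gather in the Calcb row (3 to 12 per list), and the Vip, Nts and Adcyap1 rows are at 0 in both acetyl panels.

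H3K27me3 peaks lay at most of these starts and were weak by the authors' own statistics. A peak stood within 1 kb of the start of 6, 8, 9 and 7 of the 10 genes in the Sham, SNA, Lam and DCA lists, against 22.2%, 16.9%, 25.1% and 8.46% of all genes. Npy, Calcb and Tac1 had one in all 4 lists, a pattern of 3.4% of all genes, and none of the 10 was without one in every list, where 62.3% of all genes were. At Npy the merged region was 14353 bases long (chr6:49815880-49830232) and covered the whole gene. None of the 348 H3K27me3 peaks in the 10 windows had a q of at most 0.05, the highest fold was 2.11 and the median fold 1.14. This holds for most of the lists too, in which 0.0478% to 1.31% of peaks passed that limit. With each list cut to the shortest, 21 of 40 pairs of gene and list had a start-site peak in place of 30. Between SNA and Sham, Adcyap1, Sst and Cck gained such a peak (6.84% of all genes) and Vip lost one (12.1%), and between DCA and Lam none gained one (2.51%) and Gal and Calca lost one (19.2%). Between Lam and Sham, which involve no axotomy, 4 gained one (11.2%) and 1 lost one (8.21%). The 2 controls thus differed at 5 of the 10 start sites, SNA and Sham at 4, and DCA and Lam at 2. Of the 9 sensory neuron markers 6, 3, 7 and 1 had an H3K27me3 start-site peak, and of the 8 glial markers 1, 1, 3 and 0.

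H3K27me3 counts per window differed most at Gal, with 6, 11, 17 and 2 peaks in the Sham, SNA, Lam and DCA lists. Npy had 14, 16, 20 and 22, the most of the 10 genes in the Sham, Lam and DCA lists. Cck had 8, 16, 14 and 11 and Sst 7, 14, 13 and 10, lowest in Sham. Nts had 2, 3, 2 and 5, the fewest of the 10 genes in the Sham and Lam lists and tied with Adcyap1 and Calcb in SNA. The medians over all genes were 6, 6, 8 and 3. The H3K27me3 DCA list, the shortest with 90011 peaks, held the fewest peaks of Gal and the most of Npy and Nts among the 4 lists.

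Set against the constitutive genes, the injury-induced genes did not differ beyond counting error in the number of open sites. Their windows together held 33, 34, 36 and 31 ATAC peaks in the Sham, SNA, Lam and DCA lists. The log2 ratio of SNA to Sham was 0.04 (interval -0.69 to 0.78), where the whole lists stood at 0.19. For DCA to Lam it was -0.22 (-0.96 to 0.52), with 0.06 for the whole lists. The constitutive windows held 23, 21, 24 and 23, giving -0.13 (-1.06 to 0.79) and -0.06 (-0.95 to 0.83). The difference between the groups was 0.17 for SNA (-0.92 to 1.27) and -0.15 for DCA (-1.23 to 0.92). The interval for SNA takes in a factor of more than 2 in favour of the injury-induced genes, and that for DCA a factor of more than 2 against them. Between the 2 controls, Lam and Sham, the ratios were 0.13 and 0.06.

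The injury-induced windows held 1, 0, 1 and 2 peaks of H3K9ac and the same numbers of H3K27ac, which allows no ratio. The constitutive windows held 3, 11, 4 and 12 of H3K9ac, a log2 ratio of 1.87 for SNA to Sham (-0.05 to 4.36, whole lists 0.57) and 1.58 for DCA to Lam (-0.14 to 3.67, whole lists 0.82). Without the peaks within 1 kb of another gene, these numbered 0 and 3 for Sham and SNA and 0 and 3 for Lam and DCA: the Calca start, the Calcb gene body and a site between Calcb and Insc in each axotomy list. For H3K27ac the constitutive windows held 8, 13, 14 and 11, with ratios of 0.70 and -0.35 against 0.79 and -0.53 for the whole lists. Of these peaks 6, 12, 10 and 9 lay at Insc, and without peaks near another gene 2, 1, 4 and 2 remained. The H3K9ac and H3K27ac numbers of the constitutive windows were mostly those at Insc. H3K27me3 in the injury-induced windows came to 32, 43, 52 and 40, with ratios of 0.43 for SNA to Sham, -0.38 for DCA to Lam and 0.70 for Lam to Sham (0.04 to 1.38), against 0.20, -0.78 and 0.33 for the whole lists. The interval for Lam to Sham holds the whole-list value, and it included 0 with windows of 10 kb or 100 kb, without peaks near another gene and at equal list sizes, where the ratio was 0.22 (-0.62 to 1.07). In the constitutive windows it was 23, 21, 23 and 21.

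**Figure D4:**
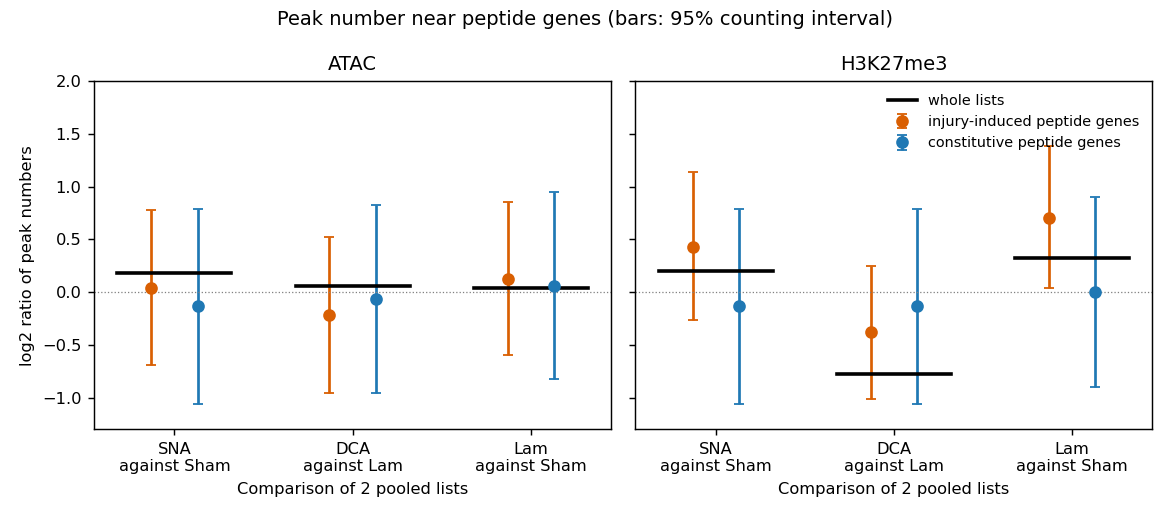
log2 ratio of peak numbers in the windows of the 5 injury-induced (orange) and 3 constitutive (blue) genes, for ATAC and H3K27me3, with 95% counting intervals; black bars are the ratios of the whole lists. All ATAC intervals include 0 and the whole-list ratio. In the H3K27me3 panel the interval of the injury-induced genes for Lam against Sham, 0.04 to 1.38, holds the whole-list ratio of 0.33, and it includes 0 at equal list sizes.

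Gene by gene, a window was called higher or lower where its peaks changed by a factor of at least 2 after adding 1 peak. For ATAC, SNA against Sham, Nts was called higher (5% of all genes) and Vip lower (3.23%), on 1 to 3 peaks per list. For DCA against Lam no gene of the 10 was called higher (4.94%) or lower (2.17%), nor for Lam against Sham (3.18% and 5.25%). For H3K9ac, Calca, Calcb and Sst were called higher in SNA (11.2%) and Gal lower (1.73%), and Npy, Calca, Calcb and Cck were called higher in DCA (24%) with none lower (0.772%). Sst was also called higher in Lam against Sham (6.09%), and none was lower (5.08%). For H3K27ac, no gene was called higher in SNA (21.7%) and Gal and Cck were lower (5.09%). In DCA, Npy and Tac1 were higher (2.29%) and Calca lower (13%), and Lam against Sham gave none (15.4% and 3.24%). For H3K27me3, Calcb was lower in SNA (13.7%) and none higher (9.96%), Nts was higher (2.05%) and Gal lower (51.4%) in DCA, and Gal was higher in Lam against Sham (20%), with none lower (4.8%). Of these H3K9ac and H3K27ac calls, all but those of Calcb rest on 3 peaks or fewer in a list.

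The share of open sites found in one list and not in the other was within counting error of that of the whole lists. Of the 34 SNA peaks in the injury-induced windows, 58.8% had no Sham peak over them (42.2% to 73.6%), against 59.6% of the whole list, and of the 21 in the constitutive windows 57.1% (36.5% to 75.5%). For DCA against Lam the shares were 58.1% and 43.5%, against 57.9%. Merged over the 4 lists, the 10 windows held 179 open regions, 16 of which were in all 4 lists, 8.94% (5.58% to 14.0%) against 10.0% of all regions. These 16 included regions over the starts of Gal, Npy, Calca, Tac1 and Cck. The DCA peak of the Tac1 region did not itself cover the start.

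Few of the open regions were acetylated in any list. An H3K9ac peak of any list overlapped 15 of the 179 open regions, 8.38% (5.14% to 13.4%), against 17.5% of all open regions, and an H3K27ac peak 16, 8.94% (5.58% to 14.0%) against 14.3%. In the injury-induced windows these shares were 4.88% (1.91% to 11.9%) and 2.44% (0.671% to 8.46%) of 82 regions. In the constitutive windows they were 18.4% (9.98% to 31.4%) and 24.5% (14.6% to 38.1%) of 49 regions, where most of the acetyl peaks are those at Insc. H3K27me3 overlapped 50.8% of the 179 regions (43.6% to 58.1%) against 38.6% of all. Leaving out regions within 1 kb of another gene, 121 remained, of which 6.61% overlapped H3K9ac, 4.96% H3K27ac and 64.5% H3K27me3. No such subset was taken of all open regions, so these shares have no matching background.

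The genes around the peptides in the pathway were read the same way. Of 18 neuropeptide receptor genes, 18, 17, 16 and 16 had an open start in the Sham, SNA, Lam and DCA lists, and 12, 12, 17 and 7 an H3K27me3 peak at the start. H3K9ac stood at 4, 1, 1 and 8 of them and H3K27ac at 1, 1, 1 and 2. Of 12 genes for peptide processing and dense core vesicles, 11, 11, 9 and 12 had an open start, 2, 4, 3 and 5 carried H3K9ac, 4, 4, 5 and 3 H3K27ac, and 3, 3, 4 and 2 H3K27me3. Of 15 other neuropeptide genes, 10, 12, 12 and 12 had an open start, 2 in each list carried H3K9ac, 1, 2, 1 and 0 H3K27ac, and 9, 8, 13 and 5 H3K27me3. Over all genes the shares were 50.1% to 59.9% for H3K9ac, 40.4% to 51.6% for H3K27ac, 8.46% to 25.1% for H3K27me3 and 68.8% to 70.7% for ATAC. In ATAC counts, none of the 18 receptors or 15 other peptides was called higher (5% of all genes) or lower (3.23%) for SNA against Sham. The median log2 difference was 0.04 for the receptors, close to 0 for the processing genes and 0.17 for the other peptides, beside 0 for the 10 genes and 0.17 for all genes. Pcsk1, the prohormone convertase that cuts many of these precursors, was called lower (3.23% of all genes), with 8, 1, 2 and 4 ATAC peaks. Chga, a granin of the vesicle matrix, had 12, 21, 13 and 17, and Scg2, another granin, 4, 2, 3 and 6. Of the other peptides, Tac2 had 9, 16, 14 and 11 and Grp, a peptide of itch neurons, 14, 10, 4 and 14. Of the receptors, Npy5r had 4, 7, 5 and 6 and Sstr2 13, 20, 17 and 21, while Sstr1 had 5, 4, 3 and 6 and Ntsr1 28, 24, 28 and 31.

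**Figure D5:**
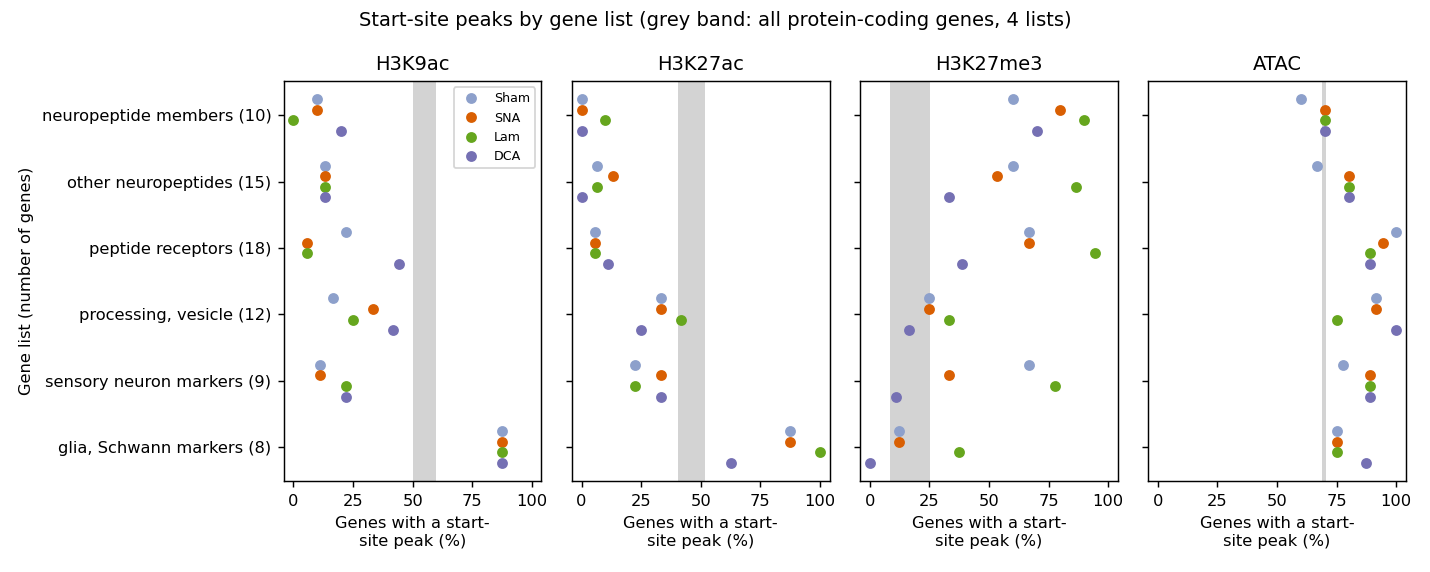
Percent of genes with a peak within 1 kb of the start, by gene list (rows) and assay (panels). Points are the 4 surgeries and the grey band is the range over the 4 lists for all protein-coding genes. The 10 neuropeptide genes lie at 0% to 20% for H3K9ac and 60% to 90% for H3K27me3, and the glial markers lie above the band for H3K9ac.

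The 3 genes whose peak numbers over the 12 H3K9ac, H3K27ac and ATAC lists followed the summed injury-induced windows most closely were Prss43 (Pearson r = 0.94), Ifnlr1 (0.94) and Pgpep1l (0.92). They were picked as the highest among 17676 genes with at least 20 peaks, after centring within each assay. Each had 0 acetyl peaks in the SNA list, as the injury-induced windows did, and the lists share their libraries and depth, so the likeness is a description of these 12 lists.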

How the data were processed

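Ganglia were profiled by ATAC-seq and ChIP-seq with replicates pooled per surgery, and the authors deposited 1 peak list per assay and surgery. Build mm10 is named in the submitters' processing notes, and the aligner, peak caller and settings are not given in the sources used here. The deposited lists give for each peak a display score, which was not used, a fold enrichment (a ratio), and the −log10 of a p-value and of a q-value, which the authors' caller computed. These values were used only to describe peaks within their own list.

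ATAC intervals listed once per summit were collapsed to 1 peak. Peaks overlapping a gene body or 50 kb on either side (RefSeq, GRCm38.p6) were counted. As a check of the build, 61.0% of starts had an ATAC Sham peak at most 100 bp away, and 6.77% did once moved by 10000 bp. Start-site peaks lay within 1 kb of a start in the RefSeq promoter table, or of either gene end for the 4395 genes without an entry. Ratios of counts carry exact conditional binomial intervals and shares Wilson intervals (95%), for counting error only. No ratio was given where a count was 0 or both were at most 3. Genes were called at a log2 ratio of 1 with 1 peak added. Regions were merged over the 4 lists of an assay. Input and single-replicate signals were not analysed here. The counting was tested on simulated data. Python 3.11.15 with numpy 2.4.6, pandas 2.3.3 and scipy 1.17.1 was used.

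The genes and lists were chosen with earlier results of these data known. Named were all 10 genes, neighbours in their windows, the 3 most alike genes, and at most 4 genes of each further list, by ATAC difference between SNA and Sham. Alternatives were other window sizes, start distances, list sizes, q limits, overlaps and pseudocounts.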

Additional observations from a re-analysis of the deposited data

How the results depend on the processing

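Of the values recomputed under other settings, 109 stayed within the counting interval of the main value (counts within 1.5 times) and 26 moved. Among the 79 recomputed log2 ratios 25 changed sign, each with an interval that includes 0. At equal list sizes the constitutive H3K27ac ratios went from 0.70 to -0.19 (SNA to Sham), from -0.35 to 0.51 (DCA to Lam) and from 0.81 to -0.19 (Lam to Sham). No paired analysis was possible because the deposited lists pool the replicates, so no replicate could be left out either. Windows of 10 kb and 100 kb changed the summed peaks of the injury-induced genes from 4 to 2 and 43 for H3K9ac and from 4 to 0 and 29 for H3K27ac. Leaving out peaks near another gene took H3K27ac to 1. Within 10 kb the injury-induced ATAC log2 ratio of DCA to Lam was -1, on 7 against 14 peaks. Within 10 kb, of 40 pairs of gene and assay, those called higher went from 4 to 8 and lower from 5 to 3 for SNA. For DCA, pairs called lower went from 2 to 7. For Lam against Sham, higher pairs went from 2 to 8 and lower pairs from 0 to 2. Over all genes within 10 kb, 14.3% of pairs were called higher and 8.29% lower for SNA. The shares were 16.9% lower for DCA, and 13.8% higher and 6.96% lower for Lam against Sham. Equal list sizes moved the H3K27me3 ratio from -0.38 to 0.51 for DCA to Lam (injury-induced) and -1.22 for SNA to Sham (constitutive), and the H3K27ac start-site pairs from 1 to 0, a setting chosen after seeing the data. Within 5 kb of the start there were 2 such pairs. Requiring a q of at most 0.05 left 0 of 30 H3K27me3 pairs. In the main setting, 65.1% (50.2% to 77.6%) of injury-induced H3K27me3 peaks of SNA had no Sham peak over them, against 70.5% of the whole list. For DCA against Lam it was 40% (26.3% to 55.4%), below the 61.6% of the whole list. The constitutive share was 57.1% in both. A reciprocal overlap of 50% raised the unmatched share of injury-induced ATAC peaks to 79.4% (SNA) and 77.4% (DCA). It raised that of injury-induced H3K27me3 peaks to 93.0% and 85%, and of constitutive H3K27me3 peaks to 90.5% in both. Equal list sizes gave 86.2%, 62.5%, 100% and 76.2% for these H3K27me3 shares. No whole-list share was taken at the reciprocal overlap or at equal list sizes, so those values do not compare these genes with the rest. In 17 cases no value could be given, among them constitutive H3K9ac without peaks near another gene, at 3 against 0 in both axotomies. The cause was not tested. With 1 pooled list per condition and unknown depth, an absent peak may be one below the authors' threshold.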
